A study of Mus musculus with 18 samples.

Results

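CD4 T cells of the mouse small intestinal epithelium that carried CD8α beside CD4 (DP) were compared with CD4 T cells of the same epithelium that carried neither CD8α nor Foxp3 (SP). Each population gave 3 libraries, so the comparison rests on 6 of the 18 RNA-sequencing libraries of the series. The libraries were chosen by their labels and not by any measured value. A gene entered the comparison when its normalised count was at least 10 in 3 or more of these 6 libraries, which 13841 of 38392 genes met. Cd8a, which encodes the surface protein used to sort the cells, was fitted with the rest and left out of every count, so that counts refer to 13840 genes.

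The cells of all groups came from donors labelled C57BL/6 TNa TNb RAG1-/- Foxp3GFP, mice whose T-cell receptor genes derive by nuclear transfer from 1 peripherally induced regulatory T cell, with a Foxp3 reporter. Donor cells that were CD4+, CD8α- and Foxp3-GFP- were injected into hosts labelled C57BL/6 TCRa-/- TCRb-/-, and their progeny was sorted 6 weeks later. Such hosts make no αβ T cells of their own, and still have γδ T cells and B cells. The groups used here were epithelial DP (CD4+CD8α+) and epithelial SP (CD4+CD8α-Foxp3-), and, for the comparison of sites, lamina propria DP and lamina propria SP of the same 2 phenotypes. Lamina propria CD4+Foxp3+ cells also entered the main fit behind the standard errors and p-values, as a group of their own. Epithelial CD4+Foxp3+ cells were left out of that fit, and some of their values are quoted. The labels give no Foxp3 state for DP cells, no age or sex of the mice, and no statement of which or how many animals stood behind a library. P-values therefore measure the spread between libraries, which the labels call biological replicates. A single receptor clone, transferred into hosts without αβ T cells, also limits how far the groups stand for a normal gut.

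Intraepithelial lymphocytes lie between the absorptive cells of the gut lining. Most CD4 T cells keep the transcription factor ThPOK, encoded by Zbtb7b, which holds them to the helper lineage and represses genes of the CD8 lineage, among them Runx3. In the small intestine some mature CD4 T cells lose ThPOK, gain CD8αα homodimers and take up features of cytotoxic T cells while keeping CD4. These CD4+CD8αα+ intraepithelial lymphocytes depend on Runx3 and T-bet, and the comparison asks which genes separate them from CD4 cells beside them that have not gained CD8α.

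The 6 libraries held 5498871 to 7111123 reads each. Across the genes tested, correlations of log2 values ran from 0.924 to 0.943 between libraries of the same population and from 0.918 to 0.936 between libraries of different populations. The first principal component of the 6 libraries held 25.1% of the variance. It stood at -57.2, -11.2 and -10.1 in DP, against 21.8, 20.9 and 35.8 in SP. The populations did not overlap on it, and DP library 1 lay furthest out. The common dispersion, a squared relative spread between replicates, was 0.0880 in epithelial DP and 0.0749 in epithelial SP.

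The sort was visible in its own gene. Cd8a stood at 4879, 6340 and 6444 normalised counts in the 3 DP libraries, against 113, 14.9 and 16.1 in the SP libraries. SP library 1 thus held more Cd8a than the other SP libraries, though far less than any DP library. Cd8b1, which encodes CD8β, the chain that pairs with CD8α on conventional cytotoxic T cells, stood at 57.7, 57.1 and 64.2 in DP, against 49.1, 53.2 and 72.1 in SP. The groups overlapped, and the log2 difference was 0.05 ± 0.23 (SE, adjusted p = 0.99). Cd4 stood at 671, 820 and 1150 in DP, against 733, 733 and 770 in SP, again with overlap (0.20, adjusted p = 0.954). Foxp3 was low and scattered in both, at 2.14, 11.6 and 22.3 in DP and 7.01, 18.1 and 39.9 in SP (-0.92, adjusted p = 0.938). In the CD4+Foxp3+ libraries sorted from the same epithelium, Foxp3 stood at 66.2, 164 and 125. Of the 23 genes called lower in DP below, 14 had every epithelial Foxp3+ library above every SP library, and of the 5 called higher 0 did. The share of all genes that lay so was not computed, so these counts are description only. In the lamina propria, 11 of the 23 had a higher mean in Foxp3+ than in SP cells. In the epithelial Foxp3+ libraries Tspan32 stood at 3148, 2468 and 2219, and Maf at 4066, 3423 and 3350. Riok1, also called lower in DP, went the other way, at 400, 431 and 277 in Foxp3+, against 594, 550 and 595 in SP. The part of Foxp3+ cells among SP cells in the results was not tested.

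Markers of T cells were high in all 6 libraries, with 10 genes summing to 29457 to 32616 in DP and 27804 to 29247 in SP. Of the 10, 9 had a log2 difference above 0, 4 of them without overlap, and 1, Cd2, lay below. Cd2 stood at 412, 333 and 407 in DP, against 689, 631 and 540 in SP, without overlap (-0.69, adjusted p = 0.162). It passed with DESeq2 (adjusted p = 0.00798) and was called lower in lamina propria DP cells (adjusted p = 0.0181). Markers of other cells of the gut were also read. The 20 epithelial genes summed to 542 to 2241 in DP and 605 to 1853 in SP, and the top libraries of both populations, DP library 1 and SP library 1, were those with most Reg3b and Reg3g, antimicrobial lectins of enterocytes. The 15 myeloid genes summed to 394 to 474 in DP and 540 to 634 in SP, with Csf1r, a defining gene, at 0 in all 6. Of the 9 myeloid genes tested 0 were called and 7 lay below 0. In 2 of the 9 every DP library lay below every SP library, where 6.37% of all genes did so. Zbtb46, a transcription factor of dendritic cells, stood at 28.9, 37.2 and 15.8 in DP, against 79.1, 83.1 and 122 in SP (-1.81, adjusted p = 0.223), and passed with DESeq2 (adjusted p = 0.0198). Cd74, the invariant chain of MHC class II, stood at 12.8, 34.8 and 11.2 in DP, against 45.1, 50.04 and 59.4 in SP (-1.52, adjusted p = 0.520). The 10 B and plasma cell genes summed to 31.0 to 43.0 in DP and 16.0 to 33.1 in SP. The 9 genes of innate lymphoid cells summed to 57.1 to 76.9 in DP and 59.4 to 200 in SP, and the 11 stromal genes to 139 to 173 in DP and 132 to 218 in SP. The γδ T-cell genes found, 5 of 6, summed to 1511 to 1955 in DP and 895 to 1081 in SP. Tcrg-C4, a constant segment of the γ chain, made up 85.6% to 88.9% of that sum in DP and 73.9% to 80% in SP. Trdv4, a variable segment of the δ chain, stood at 194, 156 and 180 in DP, against 206, 194 and 133 in SP, with overlap, while Sox13, a transcription factor of γδ T cells, was at 0 in all 6 libraries. The part of these cells in the results was not tested.

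Of 13840 genes, 28 were called between epithelial DP and SP cells at an adjusted p under 0.05 (0.202%), 5 higher in DP (0.0361%) and 23 lower (0.166%). Without adjustment, 902 genes had a p under 0.05, 431 of them higher in DP (3.11%) and 471 lower (3.4%). The genes lower in DP included ThPOK, the costimulatory receptors CD28 and ICOS, the transcription factor c-Maf, both chains of the interleukin-18 receptor and 3 members of the tumour necrosis factor family. The genes higher in DP were Ccl5, Ikzf3, Fam122b, Frmd4b and Ireb2. Of the 23 lower genes 11 differed by more than 4-fold, as did 1 of the 5 higher ones. Of the 23, 7 stood under 10 in every DP library and so met the filter through the SP libraries alone, namely Zbtb7b, Galnt9, Tnfrsf25, S100a4, Tspan32, Ramp3 and Ifitm2. Fam122b met it through the DP libraries alone. The median log2 difference over all genes was 0.01, and 50.7% of genes were above 0. The number of calls was 7 when the 6 libraries were fitted alone, and it fell to 6, 7 and 11 without SP library 1, SP library 2 or DP library 3.

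**Figure D1:**
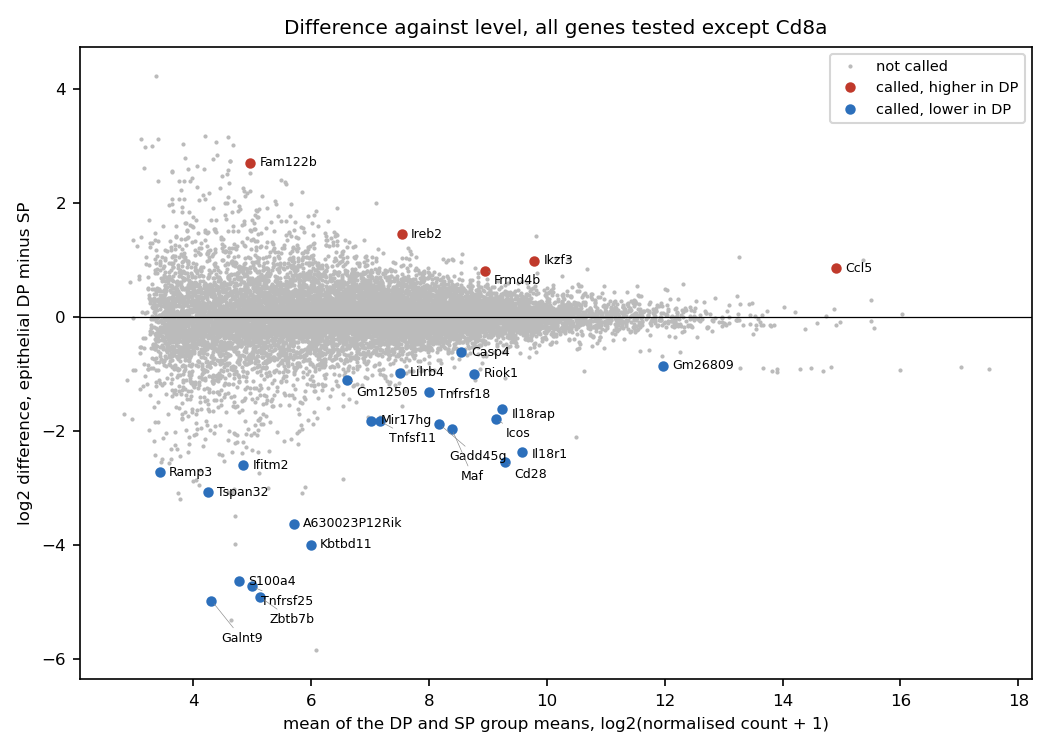
Log2 difference between epithelial DP and SP cells (y axis, positive where DP was higher) against level (x axis, log2 of the mean of both group means plus 1), with 1 point per gene tested other than Cd8a. The 5 genes called higher are red, the 23 called lower are blue, and 4 of the blue points, Galnt9, Zbtb7b, Tnfrsf25 and S100a4, lie below -4.

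Zbtb7b (chr3:89377644-89394776 in GRCm38, minus strand) was nearly silent in DP cells. It stood at 1.07, 0.83 and 1.86 normalised counts in DP, against 69.1, 49.0 and 83.1 in SP. These values came from 4 reads in the DP libraries together and 213 in the SP libraries. The ratio of DP to SP was 0.0182, with a counting interval of 0.00491 to 0.0472 (exact binomial, 95%), and the fitted log2 difference was -4.91 ± 0.68 (adjusted p = 0.00957). In bulk libraries, fewer cells expressing a gene and less RNA of it per cell cannot be told apart. The call ended without SP library 1 (adjusted p = 0.0540) and with voom (adjusted p = 0.292). Runx3, the factor that opposes ThPOK, stood at 1697, 1244 and 1516 in DP, against 1477, 1247 and 1484 in SP. The 2 groups overlapped throughout, with a log2 difference of 0.08 ± 0.17 (adjusted p = 0.983).

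Maf (chr8:115682942-115707794, minus strand) encodes c-Maf, a transcription factor of helper and regulatory T cells that drives several cytokine genes. It stood at 140, 128 and 138 in DP, against 497, 620 and 479 in SP. The DP libraries were tightly grouped and all below the SP libraries, by -1.96 ± 0.16 on the log2 scale (adjusted p = 4.29e-05). Zbtb7b and Maf were the 2 called of 17 measured genes on a list of CD4 helper lineage factors, with 0 higher. Over all genes 0.166% were called lower. The median over the list was -0.13, beside 0.01 over all genes. In 7 of the 17 every DP library lay below every SP library and in 2 above, where 6.37% and 6.56% of all genes did so. Among the list's genes without a call, named after their values were seen, Tcf7, the TCF-1 factor of memory and helper precursors, stood at 377, 339 and 248 in DP, against 694, 511 and 612 in SP (-0.92 ± 0.19, adjusted p = 0.108). Satb1, a chromatin organiser of T cells, stood at 118, 68.7 and 162 in DP, against 265, 299 and 246 in SP (-1.29 ± 0.28, adjusted p = 0.129). Cd40lg, the ligand by which helper cells license B cells, averaged 180 in DP and 340 in SP (adjusted p = 0.265). In these 3 genes the groups did not overlap, nor did they in 2 members with higher values in DP. Bcl6, the factor of follicular helper cells, stood at 29.9, 24.0 and 31.6 in DP, against 4.01, 14.9 and 11.9 in SP (1.54 ± 0.46, adjusted p = 0.422). Tox, a factor of CD4 lineage development, stood at 229, 381 and 300 in DP, against 151, 171 and 204 in SP (0.76 ± 0.33, adjusted p = 0.730).

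The sequence just before a RefSeq start is shown for Zbtb7b and for 2 other genes that fell in DP, because these windows held the core letters bound by RUNX factors. A search for TGTGGT or its reverse complement ACCACA in the 250 bases before RefSeq starts (GRCm38.p6) was made on both strands for every gene with an entry. Of the 23 lower genes 17 had a window and 4 of these held the letters, Mir17hg, Tnfrsf25, Tspan32 and Zbtb7b. Of the 5 higher genes 3 had a window and 0 held them. Over 27025 genes 15.9% held the letters in at least 1 window, and over 32851 windows 14.0%, so the share of 4 in 17 is described and not tested. The windows are chr3:89387672-89387921 on the minus strand for Zbtb7b, chr4:152115684-152115933 on the plus strand for Tnfrsf25, and chr7:143004796-143005045 on the plus strand for Tspan32, which held the letters on each strand. Zbtb7b and Tnfrsf25 each have 2 windows, and in each only the 1 shown held the letters. The Zbtb7b window shown lies inside the annotated gene, and the window nearer the gene's 5′ end (chr3:89393379-89393628) did not hold the letters. The windows are written 5′ to 3′ on the gene's strand, and the capitals mark the RUNX letters.
Zbtb7b: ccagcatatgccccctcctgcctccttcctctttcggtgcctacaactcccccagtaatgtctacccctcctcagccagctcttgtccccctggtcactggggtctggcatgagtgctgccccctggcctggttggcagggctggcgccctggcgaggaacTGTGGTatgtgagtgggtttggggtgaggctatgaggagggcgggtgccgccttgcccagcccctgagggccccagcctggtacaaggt
Tnfrsf25: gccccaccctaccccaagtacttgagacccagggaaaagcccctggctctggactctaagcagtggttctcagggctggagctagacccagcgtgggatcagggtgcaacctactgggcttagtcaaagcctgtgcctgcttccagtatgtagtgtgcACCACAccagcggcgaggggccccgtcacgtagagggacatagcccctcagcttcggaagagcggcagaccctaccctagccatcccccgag
Tspan32: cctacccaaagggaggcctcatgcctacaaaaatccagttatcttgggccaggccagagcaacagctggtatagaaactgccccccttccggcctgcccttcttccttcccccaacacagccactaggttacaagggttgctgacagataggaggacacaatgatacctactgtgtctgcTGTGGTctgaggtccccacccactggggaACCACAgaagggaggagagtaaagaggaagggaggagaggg
A match describes the letters and not binding of a factor. The letters GGTGTG of T-box factors such as T-bet, searched the same way with CACACC, were held by 4 of the 17 lower genes (Il18r1, Mir17hg, Riok1 and Tnfrsf25) and by 0 of the 3 higher ones, where 18.3% of all genes held them. In Mir17hg the RUNX and T-box letters both lay in a window inside its own transcript.

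The costimulatory receptors Cd28 and Icos fell in DP cells with the lowest adjusted p of the comparison. CD28 supplies the second signal that T cells need beside the receptor, and ICOS is its inducible relative on activated helper cells. Cd28 (chr1:60716800-60773359) stood at 144, 238 and 169 in DP, against 1192, 1080 and 915 in SP. The highest DP library lay far below the lowest SP library, and the log2 difference was -2.55 ± 0.17 (adjusted p = 5.81e-06). Icos (chr1:60977927-61000320) stood at 268, 248 and 242 in DP, against 824, 928 and 870 in SP (-1.79 ± 0.12, adjusted p = 5.81e-06). Both genes, and Maf, kept their call in all 14 other settings and without any 1 of the 15 libraries of the fit. Cd28 and Icos lie 204568 bases apart on the same strand, with Ctla4 between them. Ctla4, the inhibitory relative, averaged 268 in DP and 376 in SP, with overlapping libraries (-0.43 ± 0.28, adjusted p = 0.870).

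Cd28 and Icos were the 2 called of 13 genes on a list of the CD28 family and other inhibitory or costimulatory receptors, with 0 called higher and a median of 0.08. Over all genes 0.166% were called lower. The rest of the list went both ways. Pdcd1, which encodes the inhibitory receptor PD-1, stood at 0, 16.6 and 6.51 in DP, against 26.0, 54.3 and 45.0 in SP (-3.01 ± 1.01, adjusted p = 0.520). Havcr2, which encodes TIM-3, stood at 39.5, 27.3 and 56.7 in DP, against 4.01, 9.58 and 23.8 in SP (1.89 ± 0.57, adjusted p = 0.422). Neither passed, although the libraries of each did not overlap, and both were named after their values were seen. Btla, a further inhibitory receptor, averaged 46.4 in DP and 137 in SP without a call (adjusted p = 0.362).

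Of 14 measured receptors and ligands of the tumour necrosis factor family 3 were called lower in DP cells, where 0.166% of all genes were, and 0 higher. The list's median was -0.11, and 6 of the 14 lay above 0. Tnfrsf25 (chr4:152115934-152120119), the death receptor DR3 that binds TL1A and costimulates effector cells, stood at 0, 0.83 and 4.65 in DP, against 83.1, 60.7 and 35.6 in SP. The DP values came from 6 reads and the SP values from 182, a ratio of 0.0319 (counting interval 0.0116 to 0.0708), and the fitted difference was -4.72 ± 0.60 (adjusted p = 0.00386). Tnfrsf18, which encodes the costimulatory receptor GITR, stood at 95.1, 201 and 153 in DP, against 344, 407 and 324 in SP (-1.31 ± 0.21, adjusted p = 0.0210). Tnfsf11, which encodes the ligand RANKL, stood at 94.0, 34.8 and 65.1 in DP, against 293, 188 and 179 in SP (-1.83 ± 0.30, adjusted p = 0.0210). In all 3 the populations did not overlap, although the DP libraries of Tnfrsf18 and Tnfsf11 spread over more than 2-fold. The calls of both were lost without DP library 3 or any 1 SP library, with adjusted p up to 0.107 for Tnfrsf18 and 0.137 for Tnfsf11. Both were also lost with the 6 libraries alone, without the trended and robust steps and with voom (adjusted p up to 0.341). Tnfrsf25 kept its call without any 1 of the 15 libraries. It lost the call with the 6 libraries alone, with all 18 and with voom (adjusted p up to 0.295).

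Tnfrsf4, which encodes OX40 and lies 9552 bases from Tnfrsf18, stood at 11.8, 6.62 and 18.6 in DP, against 56.1, 69.2 and 33.9 in SP and did not pass (-2.07 ± 0.42, adjusted p = 0.0930). In all, 6 of the 14 members had every DP library below every SP library and 0 had the reverse, where 6.37% and 6.56% of all genes did so. The other 2 of these 6 besides the called genes and Tnfrsf4 were the ligands Tnfsf8 (-2.98, adjusted p = 0.424) and Tnfsf14 (-0.36, adjusted p = 0.934). Fas averaged 477 in DP and 348 in SP, and Tnfrsf9, the receptor 4-1BB, 63.3 in DP and 31.8 in SP, with overlap in both.

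Both chains of the receptor for interleukin-18, a cytokine that prompts effector T cells to make interferon-γ, fell in DP cells. Il18r1 (chr1:40465552-40500854), the binding chain, stood at 249, 393 and 143 in DP, against 1169, 1590 and 1033 in SP (-2.36 ± 0.28, adjusted p = 0.00189). Il18rap (chr1:40515362-40551705), the signalling chain, stood at 259, 436 and 213 in DP, against 880, 1131 and 702 in SP (-1.62 ± 0.25, adjusted p = 0.0173). For both genes DP library 2 was the highest DP library and SP library 2 the highest SP library, with no overlap between the populations. The 2 genes lie 14508 bases apart. Il1rl1, the interleukin-33 receptor that ends 137 bases before Il18r1, stood at 39.5, 25.7 and 26.0 in DP, against 113, 87.3 and 27.2 in SP, with overlap and no call (-1.09 ± 0.43, adjusted p = 0.663). Il18r1 lost its call with the 6 libraries alone (adjusted p = 0.133). Il18rap lost it without DP library 1, DP library 3, SP library 1 or SP library 2 (adjusted p up to 0.0946). It also lost it with the 6 libraries alone, with all 18, without the trended and robust steps and with voom (adjusted p up to 0.218).

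The interleukin-18 receptor chains were the 2 called of 13 Th1 genes, with 0 higher and a list median of -0.11. Over all genes 0.166% were called lower. Tbx21, which encodes T-bet, averaged 306 in DP and 290 in SP (0.05 ± 0.29, adjusted p = 0.991), and Ifng, the Th1 cytokine, 667 in DP and 604 in SP (0.12 ± 0.45, adjusted p = 0.989). Il12rb2, a chain of the interleukin-12 receptor, averaged 149 in DP and 252 in SP without a call (adjusted p = 0.727). The libraries of Tbx21 and Ifng overlapped and those of Il12rb2 did not.

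Ccl5 and Ikzf3 rose in DP cells of both sites. Ccl5 encodes RANTES, a chemokine stored and released by cytotoxic and memory T cells. Ccl5 (chr11:83525778-83530518, minus strand) stood at 43561, 38066 and 37338 in DP, against 22494, 20035 and 23359 in SP, so that the lowest DP library exceeded the highest SP library (0.85 ± 0.12, adjusted p = 0.00957). Ikzf3, which encodes Aiolos, an Ikaros-family transcription factor of lymphocytes, stood at 1159, 1143 and 1220 in DP, against 559, 646 and 581 in SP (0.98 ± 0.15, adjusted p = 0.0135). Both rose by somewhat under 2-fold with little spread. Ccl5 lost its call without DP library 1, SP library 1 or SP library 2 (adjusted p up to 0.0626), and Ikzf3 without DP library 3 or any 1 SP library (adjusted p up to 0.0831). Both also lost it with all 18 libraries and without the trended and robust steps, with adjusted p up to 0.410 for Ccl5 and 0.182 for Ikzf3.

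Genes of cytotoxic granules gave 0 calls, although the libraries of both granzymes named here did not overlap. Gzma, which encodes granzyme A, stood at 60652, 57028 and 50516 in DP, against 24444, 30761 and 28891 in SP. No library overlapped and the log2 difference was 1.00 ± 0.29, with an adjusted p of 0.368. The standard error pools libraries of the lamina propria, and with the 6 epithelial libraries alone the adjusted p was 0.0200. With DESeq2 Gzma passed as well (adjusted p = 0.0497). Gzmb, granzyme B, stood at 10921, 14740 and 14328 in DP, against 5257, 6952 and 7024 in SP (1.06 ± 0.35, adjusted p = 0.510), and passed in 0 of the settings tried. Of 20 cytotoxic genes 0 were called, 17 were above 0 and 6 had every DP library above every SP library, where 6.56% of all genes did, with a median of 0.18 beside 0.01 over all genes. Prf1, the pore-forming perforin, averaged 440 in DP and 315 in SP with overlap (0.49 ± 0.58, adjusted p = 0.956).

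The list of CD8 and intraepithelial identity, Cd8a left out, had 0 called of 15 measured genes and a median of 0.36. Itgae, the CD103 integrin chain that binds E-cadherin on epithelial cells, stood at 5167, 6776 and 6267 in DP, against 3602, 4698 and 3935 in SP. The populations did not overlap, and the difference of 0.57 ± 0.12 fell short of the threshold (adjusted p = 0.0988). Itgae passed with quantile normalisation (adjusted p = 0.0277), with DESeq2 (adjusted p = 0.00315) and without DP library 1 (adjusted p = 0.0476). Cd244, the receptor 2B4 of natural killer and cytotoxic cells, stood at 1832, 1520 and 1899 in DP, against 776, 928 and 879 in SP (1.02 ± 0.42, adjusted p = 0.695), and passed with DESeq2 (adjusted p = 0.0270) and voom (adjusted p = 0.0407). Tcrg-C4 stood at 1293, 1576 and 1735 in DP, against 670, 859 and 716 in SP (1.03 ± 0.39, adjusted p = 0.633), and the call appeared with DESeq2 (adjusted p = 3.47e-07) and voom (adjusted p = 0.00481). Natural killer receptor genes were mostly below the filter, with Klrc1, Klrc2, Klrk1 and Klra7 not tested. Klrd1, which encodes CD94, averaged 136 in DP and 78.0 in SP with overlap (adjusted p = 0.935).

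**Figure D2:**
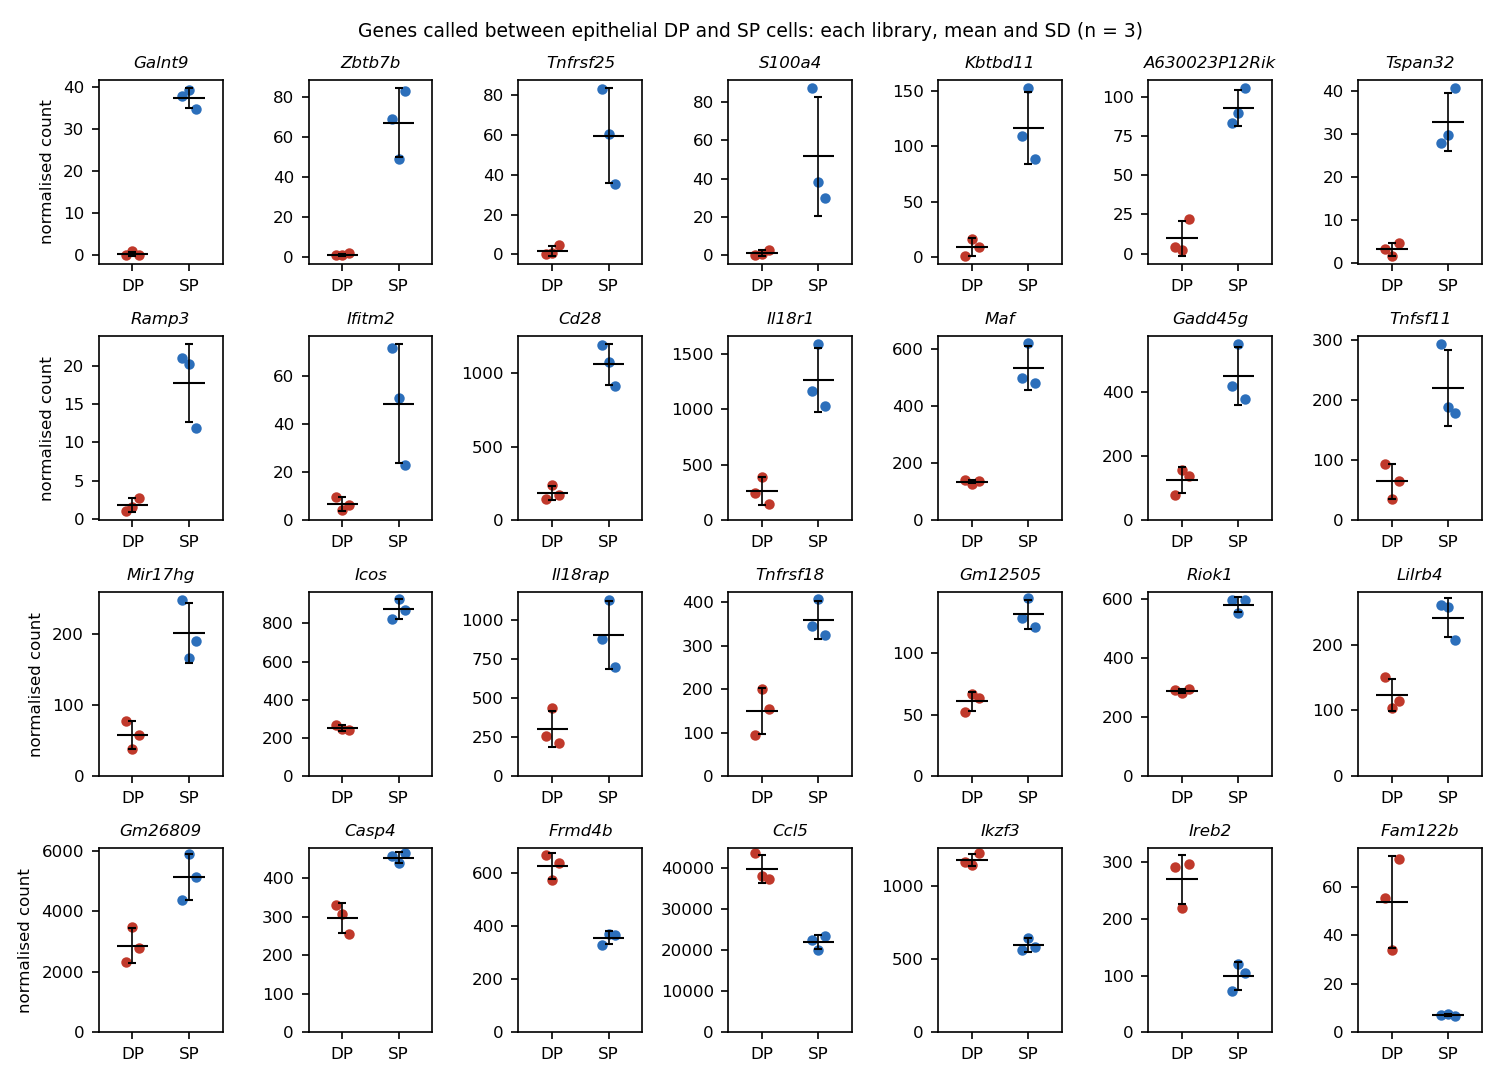
Normalised counts of the 28 genes called between epithelial DP cells (red, left) and SP cells (blue, right), 1 panel per gene with its own y axis from 0, ordered from the lowest to the highest log2 difference. Points are libraries, the long bar is the mean and the capped bar the SD of 3 libraries, and in every panel the points of the 2 populations do not overlap.

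S100a4 and Tspan32 fell in DP cells on few reads. S100a4, a calcium-binding protein of motile and memory cells, stood at 0, 0.83 and 2.79 in DP, against 87.1, 38.3 and 29.7 in SP, from 4 and 158 reads (ratio 0.0245, counting interval 0.00660 to 0.0640, fitted difference -4.63 ± 0.79, adjusted p = 0.0292). Its neighbour S100a6, 6837 bases away, stood at 10.7, 9.10 and 1.86 in DP, against 129, 49.0 and 25.5 in SP and did not pass (-3.00 ± 0.78, adjusted p = 0.298), though it did with DESeq2 (adjusted p = 0.0242). SP library 1 was the highest for both genes. Tspan32, a tetraspanin of blood cells, stood at 3.21, 1.65 and 4.65 in DP, against 28.0, 29.8 and 40.7 in SP, from 10 and 104 reads (-3.07 ± 0.53, adjusted p = 0.0292). It was the 1 called of 12 tetraspanins, as S100a4 was of 15 S100, annexin and galectin genes, where 0.166% of all genes were called lower. The call of S100a4 ended without any 1 of the 6 epithelial libraries, and so did that of Tspan32, with adjusted p up to 0.183 and 0.129. In 13 other settings S100a4 lost its call in 5 and Tspan32 in 4 (adjusted p up to 0.462 and 0.152).

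Other genes that fell had varied roles. Gadd45g, a stress-inducible activator of p38 signalling in T cells, stood at 79.1, 158 and 140 in DP, against 422, 553 and 379 in SP (-1.88 ± 0.29, adjusted p = 0.0150). Ramp3, a partner protein of the calcitonin-like receptor, stood at 1.07, 1.65 and 2.79 in DP, against 21.0, 20.2 and 11.9 in SP, from 6 and 54 reads (-2.73 ± 0.28, adjusted p = 0.000496). Ifitm2, which restricts virus entry, stood at 9.62, 4.14 and 6.51 in DP, against 72.1, 51.1 and 22.9 in SP (-2.60 ± 0.46, adjusted p = 0.0337). It was the 1 called of 18 interferon-response genes, where 0.166% of all genes were called lower. Ramp3 kept its call without any 1 of the 15 libraries, and lost it with the 6 libraries alone and with voom (adjusted p up to 0.424). Of these 15 fits Gadd45g lost its call in 3 and Ifitm2 in 9. In the other settings Gadd45g lost it in 2 and Ifitm2 in 5 (adjusted p up to 0.144 and 0.364). Casp4, the inflammatory caspase known in mice as caspase-11, fell to 329, 305 and 254 in DP, against 457, 438 and 463 in SP (-0.62 ± 0.11, adjusted p = 0.0337). Riok1, an atypical kinase of ribosome assembly, stood at 291, 281 and 295 in DP, against 594, 550 and 595 in SP (-1.001 ± 0.16, adjusted p = 0.0210). Casp4 lost its call in 12 of the 15 fits without 1 library and in 6 of 14 other settings (adjusted p up to 0.384), and Riok1 in 6 and 4 (adjusted p up to 0.121).

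Galnt9, a member of the enzyme family that starts mucin-type O-glycans, was read once in the DP libraries and 116 times in the SP libraries, at 0, 0.83 and 0 normalised counts in DP, against 38.1, 39.4 and 34.8 in SP. The ratio was 0.00834 with a counting interval of 0.000209 to 0.0474, and the fitted difference of -4.97 ± 0.71 depends on the added count (adjusted p = 0.00957). The long noncoding RNA A630023P12Rik, 18375 bases from Galnt9 on the same strand, stood at 4.27, 2.48 and 22.3 in DP, against 83.1, 89.4 and 105 in SP (-3.63 ± 0.52, adjusted p = 0.00957). Kbtbd11, a Kelch-repeat protein, stood at 1.07, 16.6 and 9.30 in DP, against 109, 152 and 88.2 in SP (-3.99 ± 0.58, adjusted p = 0.00957). Lilrb4, an inhibitory receptor of the gp49 pair, stood at 151, 104 and 114 in DP, against 260, 257 and 207 in SP (-0.98 ± 0.16, adjusted p = 0.0197), and is uncertain because the identifier shares exon bases with the near-identical Lilrb4a and Lilr4b. The noncoding RNAs Gm12505 (-1.10 ± 0.16, adjusted p = 0.00957) and Gm26809 (-0.85 ± 0.15, adjusted p = 0.0314) fell as well, and are named with A630023P12Rik and Mir17hg after their values were seen. Without 1 library, the call was lost in 9 of 15 fits for Gm26809, 4 for Lilrb4, 3 for Galnt9, and 2 each for Gm12505, Kbtbd11 and A630023P12Rik. In the other settings it was lost in 5 for Gm26809, 4 for Lilrb4, 3 each for Galnt9 and Gm12505, 2 for Kbtbd11 and 1 for A630023P12Rik. Of the called genes 12 share exon bases with another annotated gene, 8 of them only with a gene on the opposite strand, and the strand setting of the counting is not given in the sources used here. For Zbtb7b that partner is Gm15417, over 116 bases, which itself differed by -0.25 (adjusted p = 0.972). S100a4 shares 302 bases with Gm42674 and Ifitm2 268 bases with Gm45717, each annotated as protein-coding on the same strand, which limits these calls too.

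Mir17hg (chr14:115042879-115046727) is the host transcript of the miR-17 cluster, microRNAs that promote proliferation and effector growth of T cells. It stood at 76.9, 38.1 and 57.7 in DP, against 247, 166 and 189 in SP, from 180 and 626 reads (-1.82 ± 0.33, adjusted p = 0.0420). The populations did not overlap, and the call ended without any 1 of 11 of the 15 libraries (adjusted p up to 0.226). It also ended in 5 of the 14 other settings, edgeR and voom among them (adjusted p up to 0.9999). The transcript holds 6 hairpins that give 11 mature forms. The main ones are shown because they fall into families by seed, bases 2 to 8 in capitals, and miR-17-5p and miR-20a-5p share a seed, as do miR-19a-3p and miR-19b-3p (RefSeq, GRCm38.p6).
mmu-miR-17-5p: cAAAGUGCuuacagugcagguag
mmu-miR-20a-5p: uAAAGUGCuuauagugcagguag
mmu-miR-18a-5p: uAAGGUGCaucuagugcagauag
mmu-miR-19a-3p: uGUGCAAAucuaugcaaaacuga
mmu-miR-19b-3p: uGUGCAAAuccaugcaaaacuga
mmu-miR-92a-3p: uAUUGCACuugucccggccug
The libraries measured the host transcript and not the mature microRNAs.

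The 3 other genes that rose in DP cells are less known in T cells. Fam122b stood at 55.6, 33.9 and 71.6 in DP, against 7.01, 7.45 and 6.79 in SP, the 1 higher gene past 4-fold (2.70 ± 0.42, adjusted p = 0.0153). Ireb2, an RNA-binding protein that sets iron uptake and storage, stood at 292, 220 and 297 in DP, against 73.1, 121 and 104 in SP (1.44 ± 0.25, adjusted p = 0.0292). Frmd4b, a FERM-domain scaffold protein, stood at 670, 573 and 638 in DP, against 329, 373 and 368 in SP (0.81 ± 0.13, adjusted p = 0.0182). No populations overlapped. Fam122b and Frmd4b each lost the call without 5 of the 15 libraries and Ireb2 without 6. All 3 also lost it with the 6 libraries alone and with all 18. Fam122b lost it with voom as well, and Frmd4b and Ireb2 without the trended and robust steps. Over these settings the adjusted p reached 0.793 for Fam122b, 0.9999 for Frmd4b and 0.218 for Ireb2.

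Other programmes held 0 or 1 called genes. Of 13 naive, memory and egress genes 0 were called, 11 lay below 0 and the median was -0.68, the lowest of the 20 lists. Ly6c1, a surface marker of effector and memory T cells, stood at 13.9, 32.3 and 7.44 in DP, against 73.1, 94.8 and 53.5 in SP (-2.18 ± 0.43, adjusted p = 0.0833). Il7r, the interleukin-7 receptor, stood at 3223, 3735 and 2241 in DP, against 3693, 5819 and 5181 in SP, with overlap (adjusted p = 0.334). Of 16 chemokine receptors and integrins 0 were called, with 5 lying without overlap below SP and 1 above (6.37% and 6.56% of all genes). Ccr2, a receptor for inflammatory chemokines, stood at 88.7, 42.2 and 40.0 in DP, against 168, 204 and 101 in SP (-1.49 ± 0.36, adjusted p = 0.223). Ahr, the aryl hydrocarbon receptor on which intraepithelial lymphocytes depend, stood at 98.3, 117 and 76.3 in DP, against 266, 205 and 188 in SP (-1.18 ± 0.30, adjusted p = 0.285). With DESeq2 Ly6c1 (adjusted p = 0.00257), Ccr2 (adjusted p = 0.00648) and Ahr (adjusted p = 0.0265) passed as lower in DP. Ly6c1 also passed without DP library 2 (adjusted p = 0.0114).

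Proliferation genes had 0 called of 20, with 16 below 0 and a median of -0.40, yet in 0 of the 20 did the libraries separate. The regulatory core had 0 of 12 called and a median of -0.20. Folr4, a surface folate-receptor-like protein of regulatory cells, stood at 2.14, 0.83 and 3.72 in DP, against 10.01, 13.8 and 24.6 in SP (adjusted p = 0.334), and passed with DESeq2 (adjusted p = 0.00523) and without lamina propria DP library 3 (adjusted p = 0.0453). The lists of T-cell receptor signalling (22 genes, median 0.06), glycolysis (15, median 0.12), immediate early genes (16, median -0.15), TGF-β receptors and Smads (12, median -0.03), common γ chain receptors (17, median -0.07) and Th17 and AhR genes (10, median -0.01) had 0 called. Dusp2, of the immediate early list, averaged 283 in DP and 598 in SP without overlap (-1.10, adjusted p = 0.249), and passed with DESeq2 (adjusted p = 0.0173). Of 10 measured effector chemokine and cytokine genes Ccl5 was the 1 called, with a median of -0.05, where 0.0361% of all genes were called higher.

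**Figure D3:**
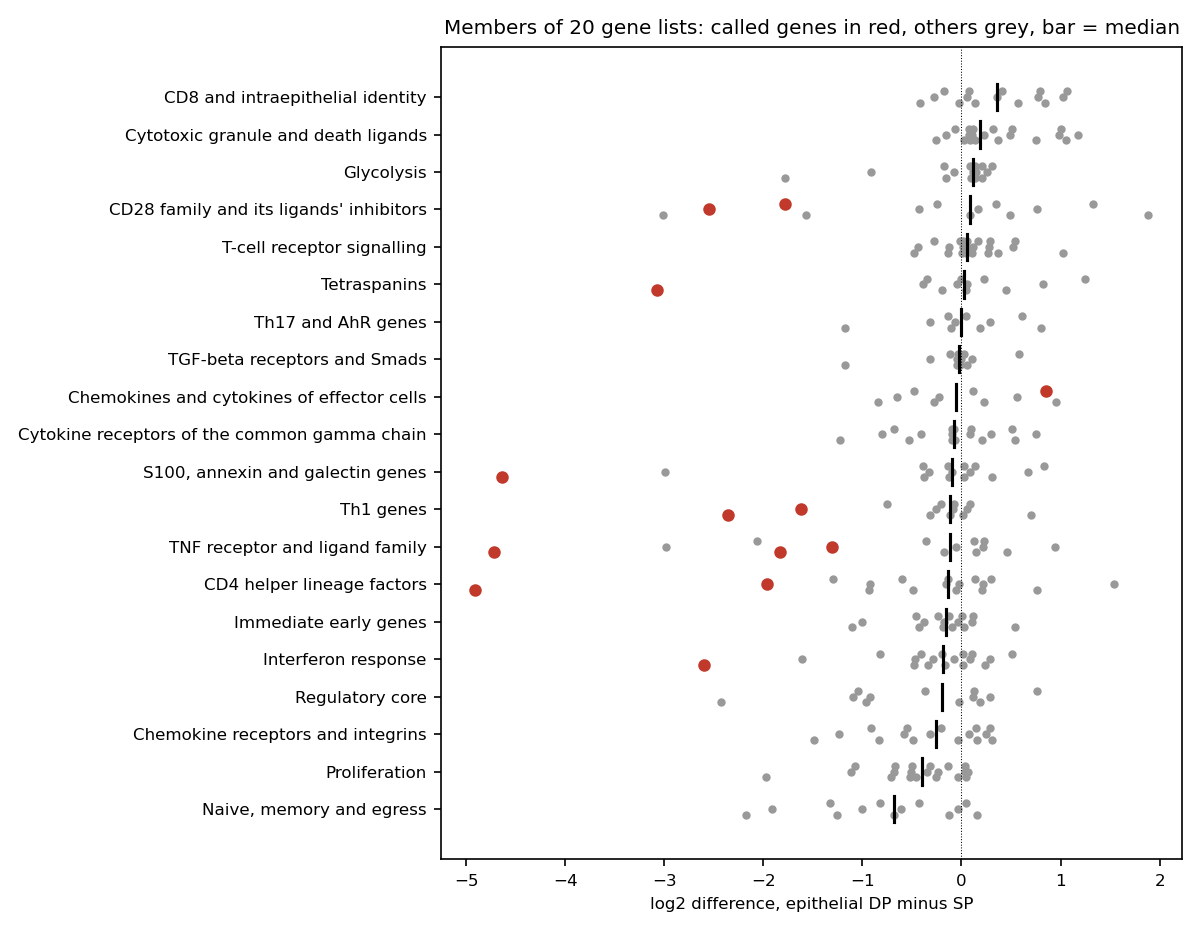
Log2 difference between epithelial DP and SP cells (x axis, positive where DP was higher) for the measured members of 20 gene lists (rows, ordered by median), with called genes in red, others in grey and a bar at the list's median. The medians run from 0.36 for CD8 and intraepithelial identity to -0.68 for naive, memory and egress genes, and the red points left of 0 belong to 7 lists.

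The same 2 phenotypes were sorted from the lamina propria, the connective tissue under the epithelium, which allows each epithelial difference to be set beside 6 other libraries. These may come from the same mice, which the labels do not state, and they also entered the fit that gave the epithelial calls. There 65 of the 13840 genes that met the filter in the epithelium were called lower in DP (0.47%) and 38 higher (0.275%). Genes that did not meet it in the epithelium were not tested in the lamina propria. Of the 23 genes that fell in epithelial DP cells, 22 had the same sign in the lamina propria and 16 were called lower there, with a median of -1.96 in the epithelium and -1.87 in the lamina propria. In 22 of the 23 the lamina propria libraries did not overlap, where 7.93% of all genes lay so in that direction. Of the 5 genes that rose, 4 had the same sign, 3 did not overlap (6.54% of all genes in that direction) and 2, Ccl5 and Ikzf3, were called. The 2 sites share 1 estimate of spread.

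Genes named above for the epithelium had these values in the lamina propria. Cd28 averaged 1456 in DP and 5229 in SP of the lamina propria (-1.84, adjusted p = 0.000129), and Icos 2760 in DP and 6981 in SP (-1.34, adjusted p = 7.33e-05). Maf averaged 258 in DP and 1383 in SP (-2.42, adjusted p = 5.83e-06), and Il18r1 954 in DP and 3629 in SP (-1.93, adjusted p = 0.00520). Tspan32 was at 3.09, 0 and 5.65 in DP of the lamina propria, against 105, 112 and 95.0 in SP (-5.12, adjusted p = 0.000312). Zbtb7b stood at 2.06, 11.9 and 33.9 in DP of the lamina propria, against 101, 73.1 and 38.3 in SP, without overlap and without a call (-2.58, adjusted p = 0.126).

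Whether a difference itself differed between the sites was tested as an interaction, and 0 of 13840 genes passed with limma (0%), with 872 at an unadjusted p under 0.05. With edgeR 0 passed and with DESeq2 31 did, among them Ccl5 (adjusted p = 4.50e-05), Frmd4b (adjusted p = 0.00216) and Mir17hg (adjusted p = 0.0291). The smallest adjusted p among the 28 genes was that of Ccl5, 0.113. Ccl5 stood at 37570, 28274 and 32654 in DP of the lamina propria, against 8355, 6702 and 9475 in SP. The difference was 0.85 in the epithelium and 2.01 in the lamina propria. The DP libraries of both sites lay between 28274 and 43561, and the difference between sites was not called. Mir17hg stood at 397, 247 and 381 in DP of the lamina propria, against 381, 240 and 325 in SP, with overlap and a difference of 0.11. Its interaction was -1.93 with an adjusted p of 0.569. Frmd4b averaged 448 in DP and 492 in SP of the lamina propria (-0.14, interaction 0.95, adjusted p = 0.309), and Ireb2 184 in DP and 158 in SP (0.21, interaction 1.24, adjusted p = 0.596). Ramp3 was low in the epithelium in both populations, while in the lamina propria it averaged 390 in DP and 861 in SP (-1.17, adjusted p = 0.0852).

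**Figure D4:**
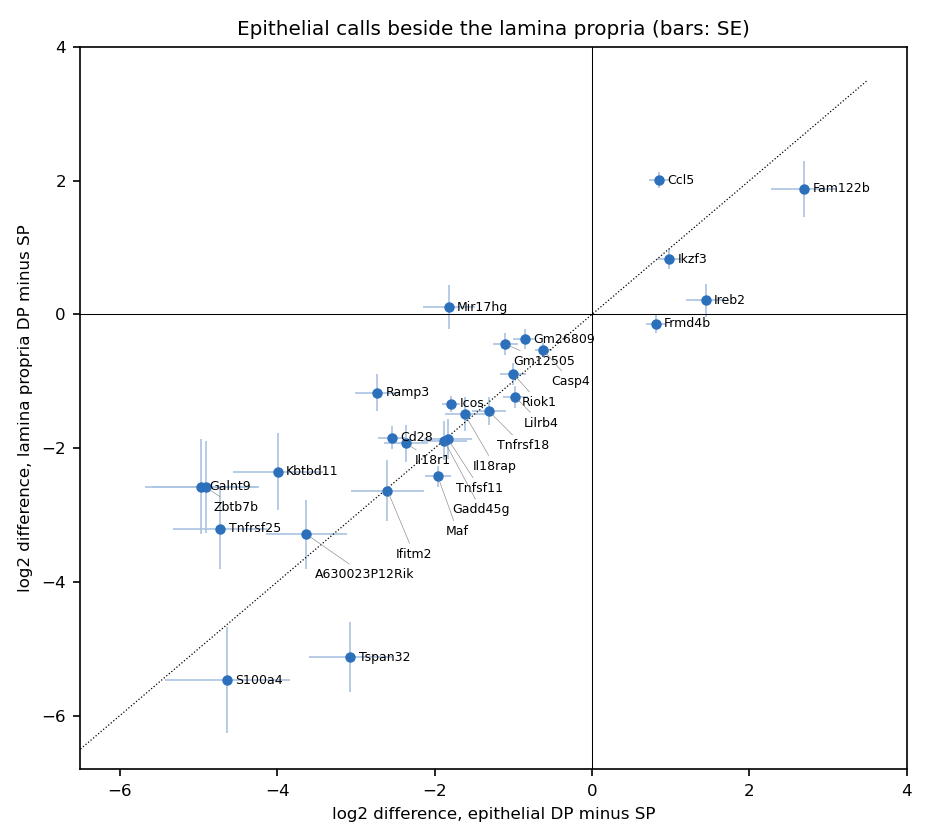
Log2 difference between DP and SP cells in the lamina propria (y axis) against that in the epithelium (x axis) for the 28 genes called in the epithelium, with SE bars and a dotted line of equality. Of the 28 points 26 lie in the quadrants of equal sign, and Mir17hg (0.11 in the lamina propria) and Frmd4b (-0.14) lie outside them.

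Some genes without an epithelial call were called in the lamina propria. In the epithelium Itgae, Gzma, Gzmb, Cd244 and Tcrg-C4 differed by 0.57, 1.00, 1.06, 1.02 and 1.03. In the lamina propria Itgae differed by 1.26 (adjusted p = 0.000129), Gzma by 2.12 (adjusted p = 0.00384), Gzmb by 1.66 (adjusted p = 0.0480), Cd244 by 2.50 (adjusted p = 0.0128) and Tcrg-C4 by 1.95 (adjusted p = 0.0354), all higher in DP. None of the 5 interactions passed with limma, with adjusted p from 0.569 for Itgae to 0.892 for Gzmb, and those of Itgae and Tcrg-C4 passed with DESeq2. Ccr2 (-2.66, adjusted p = 0.00384), S100a6 (-3.98, adjusted p = 0.0316) and Folr4 (-4.32, adjusted p = 0.00796) fell in lamina propria DP cells. Ahr differed by -0.10 there (adjusted p = 0.955), with an interaction of -1.08 that did not pass (adjusted p = 0.741).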

How the data were processed

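RNA of sorted cells was sequenced from Nextera XT libraries, per the labels' protocols. The deposited table holds the authors' normalised read counts per gene, a signal scaled per library, made from alignments with TopHat and gene counts with HTSeq on the mm10 build, per the submitters' processing notes. How the scaling factors were computed is not given in the sources used here. Low values came in even steps, so whole reads were recovered from the deposited signal (tolerance 0.1 of a step) for depth and for count-based alternatives. Genes with a value of at least 10 in 3 of the 6 epithelial libraries were tested on log2(value + 1) with limma 3.58.1 in R 4.3.3 (trended, robust). The fit held 15 libraries in 5 groups, DP and SP of both sites and lamina propria Foxp3+ cells, which share 1 estimate of spread. The epithelial Foxp3+ group was left out because its dispersion was 0.456, against 0.0749 to 0.0996 elsewhere. P-values were two-sided and adjusted by Benjamini-Hochberg over all genes tested, with 0.05 as the threshold. An exact permutation test of 3 against 3 libraries cannot go below 0.1. Fold changes on this scale understate those of low genes. Genes named were those called, fixed lineage genes and some of the 2 of lowest p in each of 27 lists with 431 entries. Other such list genes, among them Cd3e, Itga4, Smad3, Fyn and Il21r, are not shown. All others with values were chosen after their values were seen (Ctla4, Btla, Pdcd1, Havcr2, Tnfrsf4, Tnfsf8, Tnfsf14, Fas, Tnfrsf9, Tbx21, Ifng, Il12rb2, Prf1, Klrd1, Trdv4, Tcf7, Satb1, Cd40lg, Bcl6, Tox and the noncoding and predicted genes). The lists and the comparison were chosen with earlier results of these data known. Alternatives used edgeR 4.0.16 and DESeq2 1.42.0 on recovered reads. The scripts were tested on simulated data. Gene positions are those of GENCODE on GRCm38, and sequences are those of RefSeq (GRCm38.p6). Counting intervals cover counting error only.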

Additional observations from a re-analysis of the deposited data

How the results depend on the processing

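The 28 calls became 7 with the 6 epithelial libraries alone, 14 with all 18 libraries, 14 without the trended and robust steps, 13 with voom and 100 with DESeq2, which called all 28 again. Leaving out 1 library gave 6 to 31 calls. The share of calls higher in DP was 17.9%, and it was 53.8% with voom, 42.9% with the 6 libraries alone, 29.0% with DESeq2 and 7.14% with all 18 libraries. A replicate block gave 39 calls, the 28 among them. With group means removed, correlations between DP and SP libraries of the same number were 0.041 to 0.0486. Those between libraries of different number were -0.0336 to -0.0124. Because group means were removed, positive values in the first set push those in the second below 0, so the ranges are not independent. The labels do not say whether the numbers pair the libraries, and the main fit held no block. The interaction between sites, 0 calls with limma, had 1 without the filter on low values, 2 without the trended and robust steps, 31 with DESeq2 and 1 with the replicate block (Ccl5, adjusted p = 0.0358). The block also gave epithelial calls for Itgae (adjusted p = 0.0209), S100a6 (adjusted p = 0.0184) and Ly6c1 (adjusted p = 0.01147). The cause of these shifts was not tested. No called gene changed sign in any setting run. Genes at a few reads, such as Galnt9 and Zbtb7b, are limited by counting, and their fitted differences depend on the added count.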

Other observations

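A group of 14 predicted genes of high level, chosen after their values were seen, among them Gm10800, Gm10801 and Gm26870, took 14.4%, 3.42% and 5.55% of the normalised total in DP libraries 1 to 3, against 9.29%, 10.9% and 14.6% in SP libraries 1 to 3. The shares overlapped, and 0 of the 14 genes were called between the populations, with log2 differences from -0.97 to 0.23 and a lowest adjusted p of 0.808 in limma. Vil1, which encodes the villin of the enterocyte brush border, stood at 13.9, 13.2 and 15.8 in DP, against 2.00, 0 and 0.85 in SP, without overlap and without a call (3.11, adjusted p = 0.596). In the lamina propria it differed by -2.39 with overlap (adjusted p = 0.508). Of the 11 epithelial genes tested 0 were called, 7 lay above 0 and 4 below. In 2 of the 11 every DP library lay above every SP library, where 6.56% of all genes did so.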
